A study of Homo sapiens with 16 samples.

Results

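The MYC and MAX network is a family of transcription factors that pair through a shared helix-loop-helix and leucine zipper domain. Its 10 genes MYC, MYCN, MYCL, MAX, MXD1, MXD3, MXD4, MXI1, MNT and MGA were chosen by name from the 18239 genes on the array, and all 10 were bright enough to be tested. They were read by 41 of the 45253 probe sets that carried a single gene symbol, and 32 of these 41 were tested. Expression was measured in SK-N-SH, an established human neuroblastoma line, with 4 arrays of untreated cells and 4 arrays each of cells exposed to 10 µM risperidone, an antipsychotic that blocks dopamine and serotonin receptors, for 6, 24 or 48 h. The sample labels call the controls untreated, the treatment protocol says that controls received the solvent DMSO, and no harvest time is given for them. Although the replicates are labelled biological, no source used here says that they came from separate cultures, and p-values reflect no more than the variation among these 16 arrays.

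MAX is the common partner. MYC, MYCN or MYCL bound to MAX activates genes of growth and division through the E-box, a short palindromic DNA element. MXD1, MXD3, MXD4, MXI1 and MNT compete for MAX, bind the same element and recruit the SIN3 corepressor with its histone deacetylases, while MGA joins MAX to a Polycomb complex. In neuroblastoma MYCN is the best known member, because its amplification marks aggressive tumours, and lines without that amplification often rely on MYC.

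The regions before the gene starts are shown for MYCN, MXD4 and MNT, which hold one of the motifs searched. They are also shown for MXI1, whose probe sets fell into differing time courses and for which 3 separate starts were given. MGA also held a searched motif but is not shown. The sequences are the 250 bases before each start in RefSeq (GRCh38.p14), written 5′ to 3′ on the gene's own strand, with motif matches in capitals. The E-box CACGTG, which reads the same on both strands, was searched together with the E2F-type strings TTTGGCGC and TTTCGCGC on both strands.

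MYCN chr2:15940300-15940549 (+): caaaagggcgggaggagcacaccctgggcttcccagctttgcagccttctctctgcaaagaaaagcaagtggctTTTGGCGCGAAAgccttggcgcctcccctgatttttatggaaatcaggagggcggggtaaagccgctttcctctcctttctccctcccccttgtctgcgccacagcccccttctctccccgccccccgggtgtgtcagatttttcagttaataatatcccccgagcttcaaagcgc

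MXD4 chr4:2262110-2262359 (-): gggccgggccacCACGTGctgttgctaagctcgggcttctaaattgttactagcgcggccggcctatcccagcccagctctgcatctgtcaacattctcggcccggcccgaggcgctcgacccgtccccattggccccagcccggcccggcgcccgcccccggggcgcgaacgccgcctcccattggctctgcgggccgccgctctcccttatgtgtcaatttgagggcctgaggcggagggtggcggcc

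MNT chr17:2401061-2401310 (-): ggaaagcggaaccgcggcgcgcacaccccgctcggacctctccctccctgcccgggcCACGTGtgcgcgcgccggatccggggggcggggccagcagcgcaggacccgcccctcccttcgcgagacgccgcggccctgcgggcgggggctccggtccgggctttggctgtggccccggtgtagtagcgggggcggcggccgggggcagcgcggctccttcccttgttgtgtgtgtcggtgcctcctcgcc

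MXI1 chr10:110207355-110207604 (+): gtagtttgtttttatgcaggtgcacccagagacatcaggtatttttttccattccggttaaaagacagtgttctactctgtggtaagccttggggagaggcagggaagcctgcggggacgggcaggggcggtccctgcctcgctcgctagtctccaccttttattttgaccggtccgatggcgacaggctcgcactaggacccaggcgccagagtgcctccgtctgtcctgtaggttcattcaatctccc
MXI1 chr10:110209981-110210230 (+): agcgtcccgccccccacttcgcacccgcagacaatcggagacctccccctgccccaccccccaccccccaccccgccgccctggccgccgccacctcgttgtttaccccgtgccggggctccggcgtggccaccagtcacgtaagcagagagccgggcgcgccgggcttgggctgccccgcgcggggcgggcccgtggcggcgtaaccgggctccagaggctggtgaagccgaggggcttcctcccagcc
MXI1 chr10:110225746-110225995 (+): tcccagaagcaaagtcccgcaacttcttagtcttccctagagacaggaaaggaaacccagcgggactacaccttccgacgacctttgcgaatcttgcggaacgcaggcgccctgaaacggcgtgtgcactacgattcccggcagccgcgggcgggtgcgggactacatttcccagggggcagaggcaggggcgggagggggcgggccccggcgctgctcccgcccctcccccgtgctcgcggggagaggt

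An entry was found for 9 of the 10 genes, all but MYC, with 14 entries among them. The E-box lay before 2 of these genes, 238 bases before the MXD4 start and 193 bases before the MNT start, and 6.34% of all 35116 regions of this length held it. The E2F-type strings lay before 2 genes, MYCN and MGA, against 0.968% of all regions. The shares over all regions count entries and not genes, and the 9 genes had 14 entries. In MYCN both strings overlapped in 1 stretch that began 176 bases before the start. These matches describe letters in the sequence, and no binding was measured.

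Expression is given on a log2 scale, as made per probe set by robust multi-array average (RMA), so that a difference of 1 is a 2-fold difference. Each gene is represented by its brightest probe set unless another is named. Levels of different probe sets cannot be set against each other, so only changes of the same probe set are compared. Changes are given ± the standard error of the limma fit over 13680 genes, and "rose" or "fell" means an adjusted p below 0.05 (Benjamini-Hochberg within a comparison). The 3 comparisons with untreated cells share the same 4 control arrays.

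Network genes were higher in exposed cells. At 6 h 9 of the 10 genes rose and 0 fell, against 36.6% of all tested genes that rose and 16.7% that fell. At 24 h 9 rose and 0 fell (background 35.3% and 16.9%), and at 48 h 6 rose and 0 fell (background 36% and 21%). The 6 genes MYC, MYCN, MAX, MXD1, MXI1 and MNT rose at all 3 times, as did 24% of all tested genes. The median change of the 10 genes was 0.44 at 6 h, 0.37 at 24 h and 0.17 at 48 h, beside 0.0925, 0.0875 and 0.075 over all tested genes. MGA was the one gene that passed at no time. The size of these rises depended on the scaling. Of all genes called at 6 h, 24 h and 48 h, 68.7%, 67.6% and 63.1% were higher with the deposited values and 49.4%, 49.5% and 49% after cyclic loess normalization between arrays. After that normalization 7 network genes rose at 6 h (all of the 9 but MYCL and MNT), 8 at 24 h (all of the 9 but MXD3, with MGA lower by -0.22) and 4 at 48 h (MYC, MYCN, MXD1 and MXI1, with MXD3 and MXD4 lower by -0.24 each). Over all genes that setting called 3151, 3183 and 3707 higher at 6, 24 and 48 h. It called 3223, 3247 and 3858 lower, and 13680 genes were tested with the deposited values. Counted by probe set, 21 of 32 rose at 6 h, 25 at 24 h and 17 at 48 h, where 29.1%, 28.4% and 30.9% of all tested probe sets rose. A single one, of MGA at 24 h, fell, and over all probe sets 14.9%, 15.6% and 19.2% fell. All 4 exposed arrays lay outside the untreated range for 9 of the 10 genes at 6 h and at 24 h and for 5 at 48 h, which was the case for 45.7%, 46.3% and 47.7% of all tested genes.

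**Figure D1:**
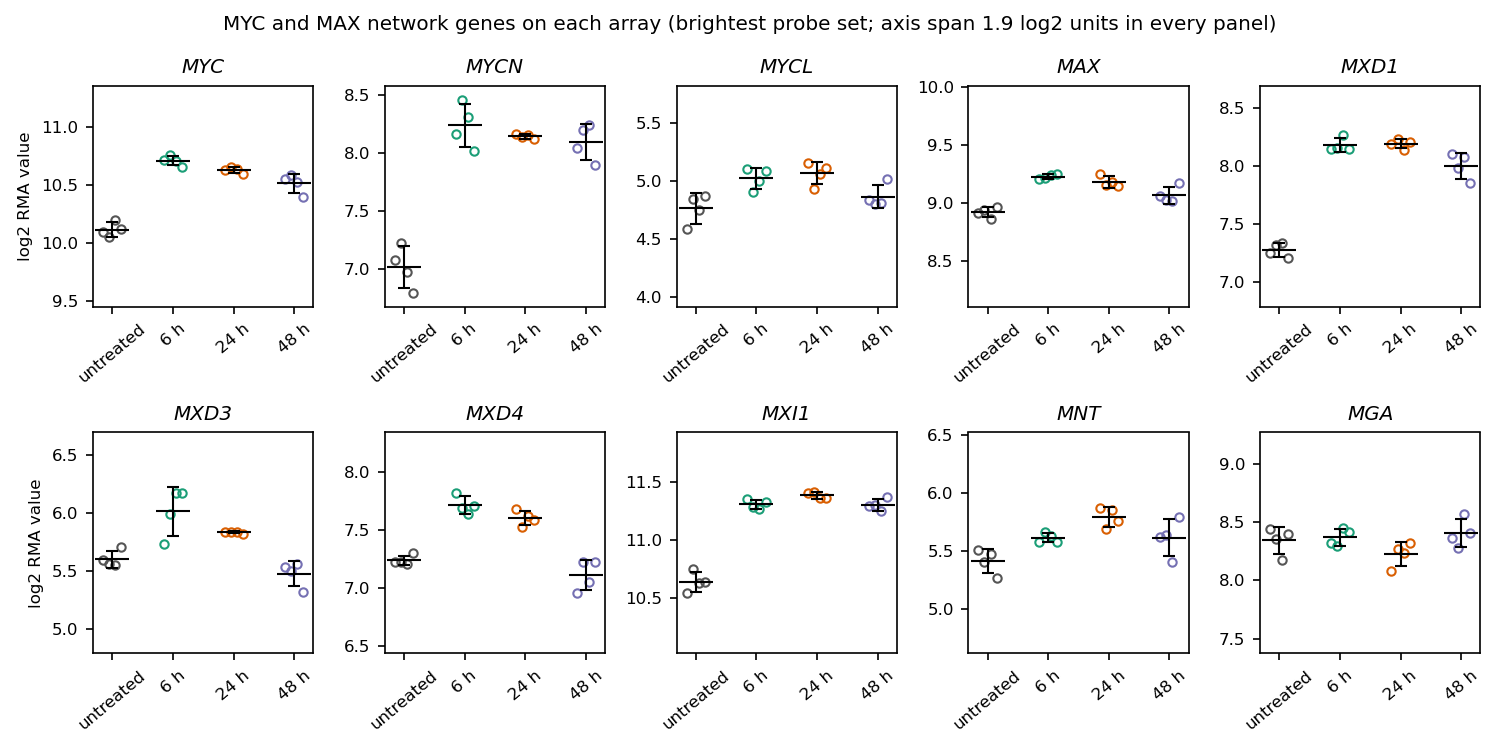
Log2 RMA values of the brightest probe set of each network gene on each of the 16 arrays (circles), with the mean and SD of the 4 arrays of a group in black. Every panel spans 1.9 log2 units. MYCN, MXD1, MXI1 and MYC stand clear of untreated at all times, MXD3 and MXD4 come back down at 48 h, and MGA stays within its spread.

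**Figure D2:**
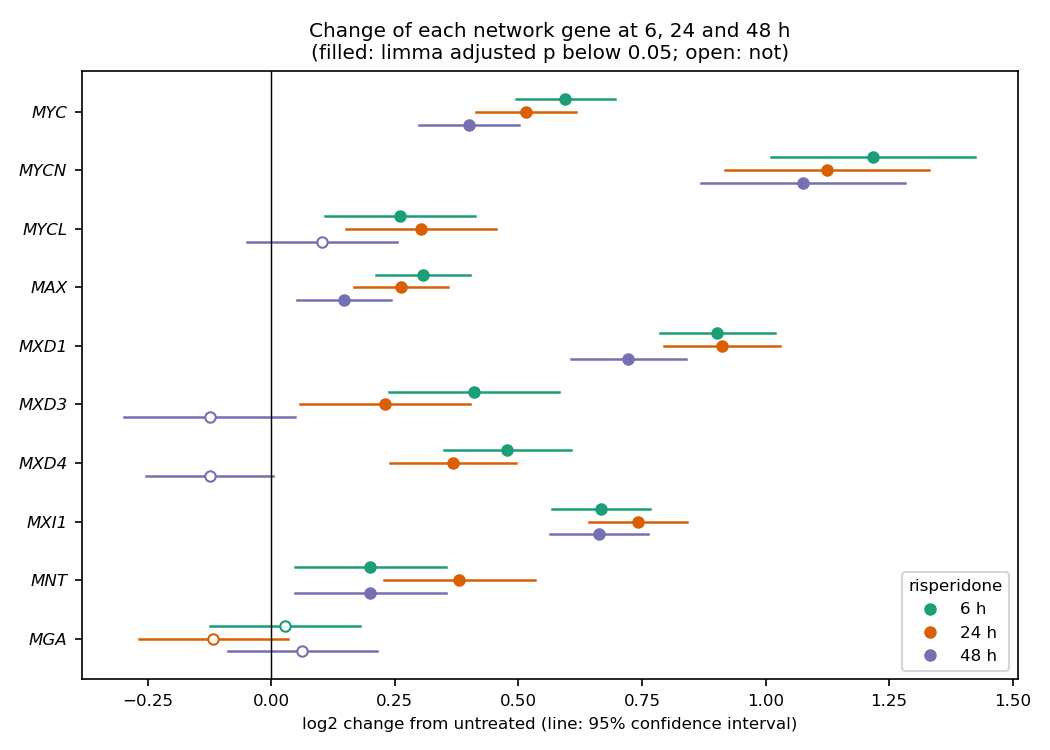
Log2 change from untreated of each network gene at 6 h, 24 h and 48 h, with 95% confidence intervals from limma. Filled circles passed an adjusted p of 0.05, as 9 of 10 genes did at 6 h and at 24 h and 6 of 10 at 48 h.

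MYCN, the neuroblastoma MYC gene, had the largest change of the 10 by brightest probe set. Its values were 7.08, 7.23, 6.98 and 6.80 in untreated cells, 8.17, 8.46, 8.31 and 8.02 at 6 h, 8.17, 8.14, 8.16 and 8.12 at 24 h, and 8.05, 8.20, 8.24 and 7.90 at 48 h. The lowest exposed array lay above the highest untreated one at every time. MYCN rose by 1.22 ± 0.10 at 6 h (2.33-fold, adjusted p = 1.56e-08), 1.13 ± 0.10 at 24 h (2.18-fold, adjusted p = 4.3e-08) and 1.08 ± 0.10 at 48 h (2.11-fold, adjusted p = 5.38e-08). It was the only network gene at least 2-fold higher at all 3 times, as were 67 of the tested genes (0.49%). With cyclic loess its change at 48 h was 0.97, just under 2-fold, and averaged over its probe sets the changes were 0.80, 0.74 and 0.66, under 2-fold at each time, though it rose in both settings. Averaged in the same way, MXI1 rose by 0.84 at 6 h, more than MYCN, and by 0.44 at 24 h and 0.31 at 48 h. With the deposited values and the brightest probe sets, the MYCN rise at 6 h ranked 42 among the 13680 tested genes.

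The other MYCN probe sets moved the same way. Probe set 11719870_s_at rose by 1.24, 1.23 and 1.05, and 11750948_a_at by 0.67, 0.58 and 0.49 at 6, 24 and 48 h, with overlap of the arrays for the latter at 48 h alone. The last probe set, with a mean of 3.40 near the bottom of the scale, was not tested. Between the exposure times MYCN differed by less than could be called (adjusted p = 0.774 for 24 h against 6 h, 0.757 for 48 h against 24 h and 0.291 for 48 h against 6 h). The 95% confidence interval of the 48 h against 6 h difference ran from -0.35 to 0.06, so a fall of up to 0.35 is within its error.

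MYC was read by a single probe set and rose at all 3 times. It measured 10.10, 10.05, 10.20 and 10.12 in untreated cells, 10.72, 10.76, 10.71 and 10.66 at 6 h, 10.63, 10.66, 10.64 and 10.60 at 24 h, and 10.55, 10.59, 10.53 and 10.40 at 48 h. No exposed array fell within the untreated range. The rise was 0.595 ± 0.05 at 6 h (1.51-fold, adjusted p = 1.52e-08), 0.52 ± 0.05 at 24 h (1.43-fold) and 0.40 ± 0.05 at 48 h (1.32-fold, adjusted p = 1.49e-06). The order of the levels was 6 h, 24 h, 48 h and untreated, in which 6 h and 24 h (adjusted p = 0.507) and 24 h and 48 h (adjusted p = 0.0828) did not differ beyond the threshold, although the latter pair did with the dimmer 50% of genes left out (adjusted p = 0.0488) and with trended and robust variances (adjusted p = 0.0421). Between 6 h and 48 h MYC fell by 0.195 ± 0.05 (adjusted p = 0.00454), with all 4 arrays at 48 h below all 4 at 6 h.

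MYCL, the family member first found in lung cancer, was dim and changed little. Its brighter probe set measured 4.58 to 4.87 in untreated cells, 4.90 to 5.10 at 6 h, 4.93 to 5.15 at 24 h and 4.80 to 5.01 at 48 h. It rose by 0.26 ± 0.07 at 6 h (adjusted p = 0.00575) and 0.30 ± 0.07 at 24 h (adjusted p = 0.0019), and the change of 0.10 ± 0.07 at 48 h did not pass (adjusted p = 0.236). The other tested probe set changed by -0.053, 0.005 and -0.053 and passed at none of these times. With the mean of its probe sets MYCL no longer passed at 6 h or 24 h (0.071 and 0.058, adjusted p = 0.273 and 0.376), and its fall of 0.20 ± 0.07 from 24 h to 48 h (adjusted p = 0.0458) was lost when any of 9 arrays was left out (adjusted p = 0.0508 to 0.125), namely untreated replicate 3, replicates 3 and 4 of 6 h, replicates 1, 3 and 4 of 24 h, and replicates 1, 2 and 3 of 48 h.

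MAX, the obligate partner, rose modestly and then declined. Its values were 8.91, 8.94, 8.86 and 8.96 in untreated cells, 9.20, 9.21, 9.24 and 9.25 at 6 h, 9.25, 9.15, 9.18 and 9.14 at 24 h, and 9.06, 9.02, 9.01 and 9.17 at 48 h. Every exposed array was above every untreated one. Relative to untreated, MAX was 0.31 ± 0.04 higher after 6 h (1.24-fold, adjusted p = 2.15e-05), 0.26 ± 0.04 after 24 h (adjusted p = 0.000108) and 0.15 ± 0.04 after 48 h (1.11-fold, adjusted p = 0.00974), and fell by 0.16 ± 0.04 from 6 h to 48 h (adjusted p = 0.0111).

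Of the 9 tested MAX probe sets 3 rose at 6 h, 7 at 24 h and 4 at 48 h, and 0 fell against untreated. Over all tested probe sets 29.1%, 28.4% and 30.9% rose and 14.9%, 15.6% and 19.2% fell, so the count of rises at 6 h lies near the background. Their changes at 6 h ran from -0.083 to 0.41. The 3 brightest rose by 0.31 to 0.41 at 6 h, while the dimmer 6 changed by -0.083 to 0.24 at 6 h and passed in no case. With the mean of all 12 probe sets the fall from 6 h to 48 h vanished (0.0031, adjusted p = 0.959). At 48 h the MAX rise was lost with cyclic loess normalization (0.063, adjusted p = 0.298) and with only the 8 arrays compared (adjusted p = 0.0525).

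Among the MAX-binding repressors MXD1 had the largest rise by brightest probe set, an order that depended on the probe sets used. Averaged over probe sets, the rises at 6 h were 0.44 for MXD1, 0.84 for MXI1 and 0.57 for MXD4. In the same order they were 0.43, 0.44 and 0.54 at 24 h and 0.33, 0.31 and 0.30 at 48 h. MXD1, also called MAD1, is induced as many cell types stop dividing and mature. It measured 7.25, 7.32, 7.34 and 7.21 in untreated cells, 8.15, 8.16, 8.27 and 8.15 at 6 h, 8.19, 8.23, 8.14 and 8.21 at 24 h, and 8.10, 7.98, 8.08 and 7.85 at 48 h. The exposed arrays lay at least 0.5 above all untreated ones. MXD1 rose by 0.90 ± 0.06 at 6 h (1.87-fold, adjusted p = 4.31e-10), 0.91 ± 0.06 at 24 h and 0.72 ± 0.06 at 48 h (1.65-fold, adjusted p = 6.09e-09). It fell by 0.19 ± 0.06 from 24 h to 48 h (adjusted p = 0.016), with no overlap of the arrays. Its fall of 0.18 from 6 h to 48 h (adjusted p = 0.0185) was lost without 48 h replicate 4 or 6 h replicate 3 (adjusted p = 0.0584 and 0.067) and with only the 8 arrays compared (adjusted p = 0.0518). With the mean of its probe sets both falls were lost (-0.096 from 24 h and -0.11 from 6 h, adjusted p = 0.142 and 0.0932). Its other probe set, with a mean of 3.41, was not tested.

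MXI1, the MAX interactor whose gene has several promoters and first exons, rose at 6 h in all 5 of its probe sets, which then parted. The brightest, 11730498_s_at, measured 10.54, 10.75, 10.63 and 10.64 in untreated cells, 11.35, 11.28, 11.27 and 11.33 at 6 h, 11.40, 11.41, 11.36 and 11.36 at 24 h, and 11.29, 11.30, 11.25 and 11.37 at 48 h. This probe set stayed up, with rises of 0.67 ± 0.05, 0.74 ± 0.05 and 0.66 ± 0.05. Probe set 11730499_a_at behaved likewise, with rises of 0.70 ± 0.09, 0.97 ± 0.09 and 1.01 ± 0.09.

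The other 3 MXI1 probe sets were raised at 6 h and fell back. Probe set 11730843_a_at measured 7.21, 7.40, 7.45 and 7.25 in untreated cells, 8.37, 8.33, 8.33 and 8.42 at 6 h, 7.74, 7.60, 7.55 and 7.26 at 24 h, and 7.49, 7.33, 7.32 and 6.71 at 48 h. The 6 h arrays stood alone above all 12 others, and the 24 h and 48 h arrays overlapped the untreated ones. This probe set rose by 1.035 ± 0.13 at 6 h (adjusted p = 4.25e-06 over 33949 probe sets) and fell by 0.825 ± 0.13 from 6 h to 24 h (adjusted p = 0.00147). Probe sets 11739744_x_at and 11739743_a_at rose by 0.95 ± 0.08 and 0.87 ± 0.11 at 6 h and fell by 0.735 ± 0.08 and 0.79 ± 0.11 from 6 h to 24 h. At 24 h 11739744_x_at was still higher than untreated by 0.22 ± 0.08 (adjusted p = 0.0455), and at 48 h none of the 3 differed from untreated beyond the threshold.

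The parting of the MXI1 probe sets was also described within arrays, on pairs chosen because their values were seen to part and therefore not tested. The difference 11730843_a_at minus 11730498_s_at ran from -2.98 to -2.91 at 6 h and from -4.10 to -3.66 at 24 h, a shift of -0.90. The difference 11739744_x_at minus 11730499_a_at shifted by -1.005 between the same groups. Averaged over its probe sets, MXI1 fell by 0.40 from 6 h to 24 h (adjusted p = 0.00159), and by 0.53 from 6 h to 48 h (adjusted p = 7.33e-06), whereas its brightest probe set changed by 0.075 from 6 h to 24 h (adjusted p = 0.536). Which transcript each probe set reads was not used here, and an s or x in a probe set's name marks probes that can also match other transcripts.

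**Figure D3:**
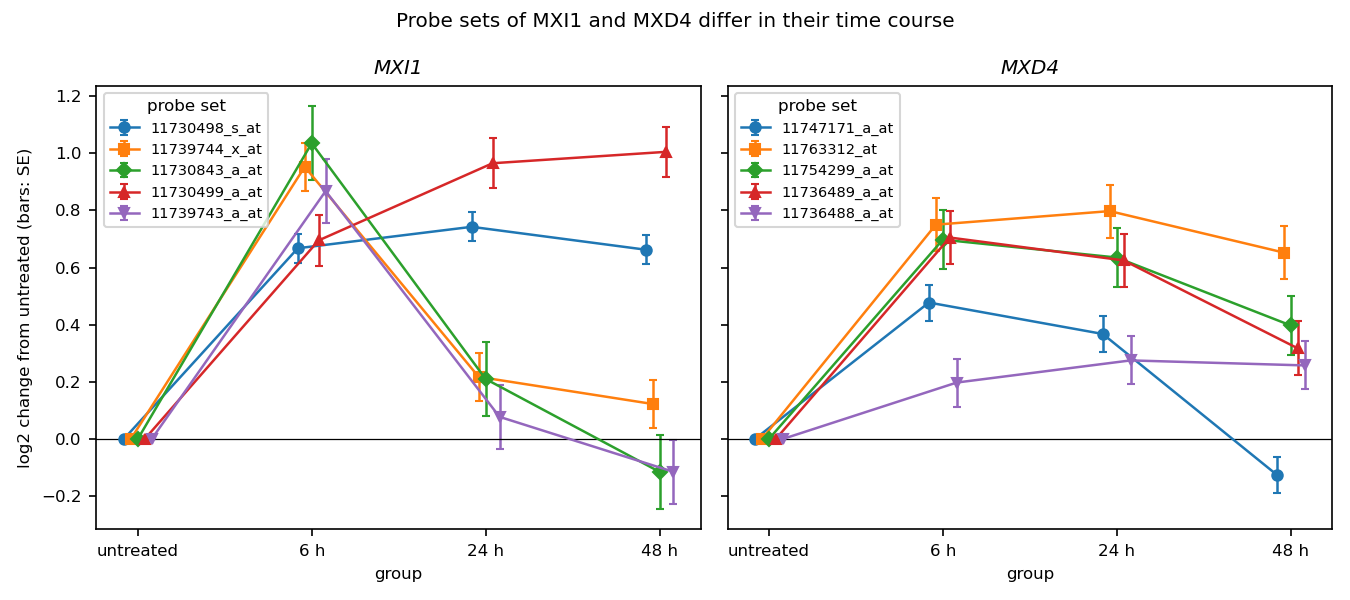
Log2 change from untreated at 6, 24 and 48 h for each of the 5 probe sets of MXI1 (left) and of MXD4 (right), with the standard error from limma as bars and the untreated mean set at 0. For MXI1, 2 lines stay up and 3 return to near 0. For MXD4 the brightest probe set, 11747171_a_at, alone ends below 0, at -0.125.

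MXD4 rose at 6 h and 24 h, and its probe sets disagreed at 48 h. The brightest, 11747171_a_at, measured 7.22, 7.22, 7.21 and 7.30 in untreated cells, 7.82, 7.69, 7.64 and 7.71 at 6 h, 7.68, 7.53, 7.62 and 7.59 at 24 h, and 6.96, 7.22, 7.05 and 7.22 at 48 h. Arrays at 6 h and 24 h were above all untreated ones, and those at 48 h reached back into or below the untreated range. It rose by 0.48 ± 0.06 at 6 h (adjusted p = 4.26e-06) and 0.37 ± 0.06 at 24 h, and changed by -0.125 ± 0.06 at 48 h (adjusted p = 0.089). That change passed as lower with cyclic loess (-0.24, adjusted p = 0.00451) and without 48 h replicate 2 or 48 h replicate 4 (-0.16, adjusted p = 0.0409 and 0.0369). From 24 h to 48 h it fell by 0.49 ± 0.06 (adjusted p = 1.75e-05).

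The other 4 MXD4 probe sets were all higher than untreated at 48 h. Probe set 11763312_at measured 6.72, 6.92, 6.74 and 6.73 in untreated cells and 7.42, 7.37, 7.21 and 7.72 at 48 h, a rise of 0.65 ± 0.09 (adjusted p = 1.19e-05 over probe sets), and 11754299_a_at, 11736489_a_at and 11736488_a_at rose by 0.40, 0.32 and 0.26. The mean of the 5 probe sets gave a rise of 0.30 at 48 h (adjusted p = 7.11e-06), opposite in sign to the brightest. Within arrays, 11747171_a_at minus 11763312_at ran from 0.30 to 0.57 in untreated cells and from -0.50 to -0.15 at 48 h, which was not tested because the pair was chosen for this difference.

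MXD3, the member tied to the S phase of dividing cells, rose early and returned. It measured 5.60, 5.56, 5.55 and 5.71 in untreated cells, 5.73, 5.99, 6.17 and 6.17 at 6 h, 5.84, 5.84, 5.84 and 5.82 at 24 h, and 5.54, 5.50, 5.56 and 5.32 at 48 h. The 6 h and 24 h arrays lay above all untreated ones and the 48 h arrays below all of 6 h and 24 h. MXD3 rose by 0.41 ± 0.08 at 6 h (adjusted p = 0.000439) and 0.23 ± 0.08 at 24 h (adjusted p = 0.0256), changed by -0.125 ± 0.08 at 48 h (adjusted p = 0.204), and fell by 0.355 ± 0.08 from 24 h to 48 h (adjusted p = 0.00347). The 24 h rise was lost with cyclic loess (0.11, adjusted p = 0.33) and without untreated replicate 2 or untreated replicate 3 (adjusted p = 0.059 and 0.0598). Its dimmer tested probe set passed at 24 h alone (0.225 ± 0.08).

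MNT, the most widely expressed MAX-binding repressor, rose slightly. Its brighter probe set ran from 5.27 to 5.51 in untreated cells, 5.58 to 5.66 at 6 h, 5.69 to 5.87 at 24 h and 5.40 to 5.79 at 48 h, with overlap at 48 h alone. It rose by 0.20 ± 0.07 at 6 h (adjusted p = 0.0281), 0.38 ± 0.07 at 24 h (adjusted p = 0.000293) and 0.20 ± 0.07 at 48 h (adjusted p = 0.0257). Its second probe set rose by 0.225, 0.19 and 0.26. For the brighter one the calls at 6 h and 48 h were lost with cyclic loess (0.079 and 0.084), with trended and robust variances (adjusted p = 0.0539 and 0.0511) and without untreated replicate 2 or 4 (lowest value 0.15 at both times, adjusted p up to 0.101 and 0.0945). The 6 h call was also lost without 6 h replicate 2 or 3 (adjusted p = 0.0681 and 0.0579), and the 48 h call without 48 h replicate 2 or 4 (adjusted p = 0.0563 and 0.0971).

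MGA, the giant scaffold that pairs with MAX, did not pass at any time by its brightest probe set. That set ran from 8.18 to 8.44 in untreated cells, 8.30 to 8.45 at 6 h, 8.08 to 8.32 at 24 h and 8.28 to 8.57 at 48 h, with overlap of all groups. The changes from untreated were 0.028 ± 0.07, -0.12 ± 0.07 and 0.062 ± 0.07, with 95% confidence intervals of -0.12 to 0.18, -0.27 to 0.03 and -0.089 to 0.21. Probe set 11743706_a_at fell by 0.495 ± 0.15 at 24 h (adjusted p = 0.0125 over probe sets), although its untreated arrays spread from 7.06 to 7.93 and overlapped those at 24 h, 6.90 to 7.35. With the mean of its probe sets MGA passed as lower at 24 h (-0.23, adjusted p = 0.0138), as it did by the brightest one with cyclic loess (-0.22, adjusted p = 0.0272) and without untreated replicate 3 (-0.17, adjusted p = 0.0499).

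The moderated F test over the 3 exposures passed for 9 of the 10 genes and for 66.7% of all tested genes. The strongest were MXD1 (adjusted p = 4.83e-10), MXI1 (adjusted p = 9.24e-10), MYCN (adjusted p = 2.08e-08) and MYC (adjusted p = 4.2e-08), and MGA did not pass (adjusted p = 0.139). Between exposure times, 0 of the 10 genes differed at 24 h against 6 h by the limma test at an adjusted p below 0.05 (background 2.4%). At an unadjusted p under 0.05 there were 2, MXD3 and MNT, a level for which no share over all genes is given. From 24 h to 48 h 4 fell and 0 rose (background 15.1% lower and 13.5% higher), namely MXD3, MXD4, MXD1 and MYCL, and from 6 h to 48 h 5 fell and 0 rose (background 17% lower and 16.7% higher), namely MXD4, MXD3, MYC, MXD1 and MAX.

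Markers of the cell identities in this line also differed between untreated and exposed cells. SK-N-SH cultures are known to hold adrenergic, neuroblast-like cells beside mesenchymal, substrate-adherent ones. Of 9 mesenchymal markers 8 fell at each time, 1 rose at 48 h, and the median change at 6 h was -3.30, and their mean log2 level per array went from 9.65 to 9.82 in untreated cells to between 7.07 and 7.44 in all exposed arrays. Of 7 adrenergic markers tested 7 rose at 6 h, 6 at 24 h and 6 at 48 h, and their mean level went from between 10.3 and 10.4 to between 10.7 and 10.9. Over all tested genes 36.6%, 35.3% and 36% rose, 16.7%, 16.9% and 21% fell, and the median change at 6 h was 0.0925. Adrenergic identity was present in all groups (PHOX2A 9.78 ± 0.05 in untreated cells, SD, n = 4), and of 4 markers of other lineages 2 were too dim to test, the blood marker PTPRC and the epithelial marker CDH1, and the other 2 did not pass at any time. Of 4 Schwann and glial markers, whose mean level per array lay between 4.36 and 4.62 in all groups, S100B rose by 0.605 and MITF fell by 0.92 at 6 h, SOX10 rose at 24 h alone among the exposures (0.27) and ERBB3 was too dim to test. In total RNA of a mixed culture, a change in the share of cells of a type and a change of RNA per cell cannot be told apart, and the part of cell identity in the changes of the network genes was not tested.

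The genes that act around the network were described through 10 lists with 112 genes in all, of which 103 were tested. As background to each list, the share over all tested genes was 36.6% higher and 16.7% lower at 6 h, 35.3% and 16.9% at 24 h, and 36% and 21% at 48 h, and no list was tested as a group. Of the textbook targets that MYC induces in ribosome assembly, 28 were tested. At 6 h 6 rose and 4 fell, at 24 h 4 rose and 5 fell, and at 48 h 11 rose and 2 fell. The 11 of 28 at 48 h lie near the 36% of all genes, and the counts of rises at 6 h and 24 h lie below 36.6% and 35.3%. Their medians, 0.022, 0.005 and 0.03, lay below those of all genes. PPAN, a factor of large-subunit assembly, rose by 0.17 ± 0.05 at 24 h and 0.62 ± 0.05 at 48 h. UBTF, which opens ribosomal DNA to RNA polymerase I, rose by 0.215 ± 0.07 at 6 h and 0.485 ± 0.07 at 48 h.

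Of 19 tested metabolic MYC targets 5 rose and 2 fell at 6 h, 5 rose and 1 fell at 24 h, and 4 rose and 7 fell at 48 h, beside 36.6%, 35.3% and 36% of all genes that rose and 16.7%, 16.9% and 21% that fell. The amino acid transporter SLC7A5 rose by 0.41 ± 0.07 at 6 h and fell by 0.455 ± 0.07 at 48 h against untreated. The one-carbon enzyme SHMT2 went the same way, with 0.30 ± 0.05 and -0.37 ± 0.05.

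Of 11 tested cell cycle targets 6 rose and 1 fell at 6 h (all genes 36.6% and 16.7%), 5 rose and 1 fell at 24 h (35.3% and 16.9%), and 0 rose and 5 fell at 48 h (36% and 21%). Between 24 h and 48 h 6 of them fell, 0 rose and 5 were not called (all genes 15.1% lower and 13.5% higher), and their median changed by -0.215 beside -0.0125 over all genes. The G1 cyclin CCNE1 rose by 0.38 ± 0.06 at 6 h and 0.56 ± 0.06 at 24 h and then fell by 0.675 from 24 h to 48 h (adjusted p = 6.37e-07). The S-phase activator E2F2 rose by 0.37 ± 0.07 and 0.44 ± 0.07 and was lower than untreated by 0.18 at 48 h (adjusted p = 0.0315).

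Genes that MYC is known to repress did not move as 1 group. Of 6 tested 3 rose and 2 fell at each time, where 35.3% to 36.6% of all genes rose and 16.7% to 21% fell. The cell cycle inhibitor CDKN1A fell by 1.04 ± 0.09, 0.89 ± 0.09 and 1.21 ± 0.09 at 6, 24 and 48 h, while CDKN1C, another inhibitor of cyclin-dependent kinases, rose by 0.98 ± 0.06, 1.13 ± 0.06 and 1.41 ± 0.06.

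**Figure D4:**
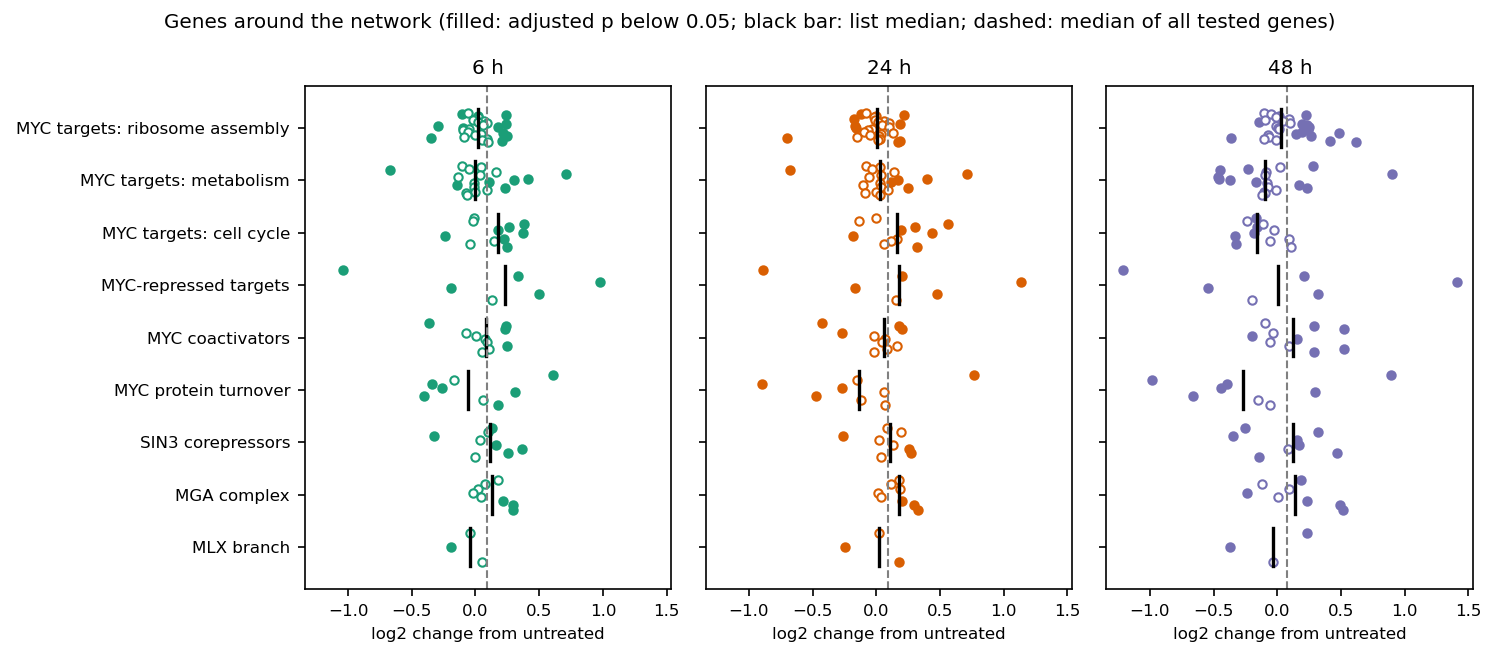
Log2 change from untreated at 6, 24 and 48 h of every tested gene of 9 lists around the network, 1 circle a gene, filled where the adjusted p was below 0.05. Black bars are list medians and the dashed line is the median of all tested genes, 0.0925, 0.0875 and 0.075. At 48 h the medians of MYC protein turnover (-0.27), cell cycle targets (-0.16) and metabolic targets (-0.095) lie furthest to its left. Those of the MLX branch (-0.035), the MYC-repressed targets (0.00625) and the ribosome assembly targets (0.03) also lie to its left.

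Of 8 tested genes of MYC protein turnover 3 rose and 3 fell at 6 h (all genes 36.6% and 16.7%), 1 rose and 3 fell at 24 h (35.3% and 16.9%), and 2 rose and 4 fell at 48 h (36% and 21%). Their medians were -0.055, -0.14 and -0.27. These pooled counts and medians give no direction for MYC protein, which was not measured. FBXW7, the ubiquitin ligase subunit that marks phosphorylated MYC and MYCN for degradation, measured 9.02 ± 0.01 in untreated cells and 9.63 ± 0.05, 9.79 ± 0.04 and 9.91 ± 0.03 at 6, 24 and 48 h (SD, n = 4). It rose by 0.61 ± 0.04, 0.77 ± 0.04 and 0.89 ± 0.04. SKP2, another ligase subunit that acts on MYC, did not pass at 6 h (-0.17, adjusted p = 0.0511) or 24 h (-0.155, adjusted p = 0.0743) and fell by 0.98 ± 0.07 at 48 h (adjusted p = 2.54e-09).

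Of 10 tested MYC coactivators 3 rose and 1 fell at 6 h (all genes 36.6% and 16.7%), 2 rose and 2 fell at 24 h (35.3% and 16.9%), and 5 rose and 1 fell at 48 h (36% and 21%). The counts at 6 h lie near the background. The acetyltransferase KAT5 rose by 0.23 ± 0.05, 0.205 ± 0.05 and 0.53 ± 0.05. ZBTB17, also called MIZ1, is counted in this list although MYC represses genes through it. ZBTB17 rose at 48 h alone among the exposures (0.52 ± 0.06), and by 0.44 from 24 h to 48 h (adjusted p = 2.16e-05).

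Of 8 tested SIN3 complex genes, the corepressors of the MXD proteins and MNT, 4 rose and 1 fell at 6 h (all genes 36.6% and 16.7%), 2 rose and 1 fell at 24 h (35.3% and 16.9%), and 4 rose and 3 fell at 48 h (36% and 21%), which lie near the background. SUDS3 rose by 0.26, 0.275 and 0.47 (each ± 0.06). The scaffold SIN3A rose by 0.13 ± 0.05 at 6 h and fell by 0.255 ± 0.05 at 48 h against untreated. In the Polycomb complex of MGA 3 of 8 tested genes rose at 6 h, 3 at 24 h and 4 at 48 h, and 0, 0 and 1 fell. The rises at 6 h and 24 h are at the background of 36.6% and 35.3%, and 36% of all genes rose at 48 h. Its related subunits RYBP and YAF2 both rose at all 3 times, by 0.295 ± 0.05 and 0.295 ± 0.08 at 6 h and by 0.49 ± 0.05 and 0.52 ± 0.08 at 48 h.

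The MLX branch shares MXD1, MXD4 and MNT with MAX. MLX itself rose at 48 h (0.235 ± 0.06), its partner MLXIP, also called MondoA, fell by 0.19 ± 0.06, 0.24 ± 0.06 and 0.37 ± 0.06, and MLXIPL, also called ChREBP, rose at 24 h alone among the exposures (0.18 ± 0.06). The arrestin-like genes TXNIP and ARRDC4, induced by MondoA and MLX, rose by 0.305 ± 0.08 and 0.70 ± 0.05 at 6 h and were lower than untreated at 48 h, by -3.60 ± 0.08 and -1.39 ± 0.05.

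The genes whose 16 values followed those of a network gene most closely were sought for MYC, MYCN and MAX by Pearson correlation across the arrays. For MYC they were TBPL1 (r = 0.982), BEND5 (r = 0.972) and SLC27A5 (r = 0.972). For MYCN they were FBXO8 (r = 0.979), PHF21B (r = 0.977) and ZNF302 (r = 0.976), and for MAX they were PYCR1 (r = 0.963), ANO7 (r = 0.961) and ZNF773 (r = 0.956). All points share the gap between the 4 untreated and the 12 exposed arrays, so these values are descriptions of that pattern.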

How the data were processed

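The authors deposited log2 values per probe set made by RMA, per the submitters' processing notes, a method that corrects background, equalises the arrays' distributions and summarises probes. The sources used here name neither the software nor its version. Array medians lay between 4.5 and 4.62, and equalised distributions hide changes in total RNA per cell. Of 49386 probe sets, 45253 had 1 gene symbol in GEO's platform annotation, 1327 had several, 2713 had none and 93 were controls. Through Entrez identifiers 45172 matched RefSeq, which changed 0 symbols.

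Each gene was represented by its brightest probe set, and the dimmest 25% of genes were left out, which left 13680 (33949 probe sets in the fit of probe sets). limma 3.58.1 in R 4.3.3 (lmFit, eBayes, two-sided) was fitted to all 16 arrays with a mean per group, 4 arrays each, a number that limits the precision. Arrays of 1 group correlated at 0.996 to 0.999, and no pair shared over 4.55% of values. The network genes and lists were chosen with earlier results of these data known. Named were all members, the 2 members of each list with the smallest F-test p, all members of lists of 3 or fewer, and the 3 genes most correlated with MYC, MYCN and MAX. MGA's second probe set and the markers' examples were named after their values were seen. On simulated 6 h values of 13680 genes, the fit recovered 68% of 1.25-fold, 98% of 1.5-fold and 100% of 2-fold changes, with 17 false calls among 200. Only 50 genes were changed at each fold, with independent noise, against 7291 called in the data, so these rates need not hold there. The alternatives were other scalings, array weights, filters on dim genes, variance settings, fewer arrays and a replicate block. Further ones were the mean of the probe sets and the brightest probe set in the fit of all probe sets. Differences between probe sets within arrays were described after the data were seen, without a test.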

Additional observations from a re-analysis of the deposited data

Results flagged for a closer look

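In 128 groups of 4 arrays (the 32 tested probe sets in 4 groups), 8 held 1 array that stood apart from the other 3 by Dixon's criterion, which chance meets in about 1 of 20 groups. These were MYCL at 48 h (replicate 4 at 5.01, others 4.80 to 4.83), MAX probe set 11728150_at at 6 h (replicate 4 at 4.83, others 5.00 to 5.02), MXD1 at 6 h (replicate 3 at 8.27, others 8.15 to 8.16), MXD3 at 24 h (replicate 4 at 5.82, others all 5.84), MXD4 in untreated cells (replicate 4 at 7.30, others 7.21 to 7.22), MXD4 probe set 11763312_at in untreated cells (replicate 2 at 6.92, others 6.72 to 6.74), MXI1 probe set 11739744_x_at at 48 h (replicate 3 at 8.29, others 8.41 to 8.43) and MGA probe set 11743706_a_at at 48 h (replicate 3 at 7.64, others 7.23 to 7.25). They fell on 7 of the 16 arrays.

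The change from untreated differed between exposure times for 6 genes by the limma contrast of the times themselves. From 24 h to 48 h MYCL fell by 0.20, MXD1 fell by 0.19, MXD3 fell by 0.355 and MXD4 fell by 0.49. From 6 h to 48 h MYC fell by 0.195, MAX fell by 0.16, MXD1 fell by 0.18, MXD3 fell by 0.535 and MXD4 fell by 0.60.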

How the results depend on the processing

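Leaving out each array in turn kept the number of network genes called at 8 to 9 at 6 h, 8 to 9 at 24 h and 5 to 6 at 48 h, and at 0 to 1 for 24 h against 6 h (MXD3, without 6 h replicate 1), 3 to 6 for 48 h against 24 h and 4 to 5 for 48 h against 6 h. These counts of network genes pool rises and falls. Without 48 h replicate 2 or 4, the MNT rise at 48 h was lost and MXD4 was called lower. Over all genes, the calls ran from 6643 to 7540 at 6 h and from 6551 to 7400 at 24 h. At 48 h they ran from 7408 to 7782. The all-gene calls ran from 3323 to 4196 for 48 h against 24 h and from 3987 to 4917 for 48 h against 6 h. For 24 h against 6 h they ran from 163 to 378 against 329, and array weights gave 839. When the probe sets of a gene were averaged, 1 network gene (MXI1) was called for 24 h against 6 h in place of 0, and its change turned from 0.075 to -0.401. That setting also turned MXD4 at 48 h from -0.125 to 0.30 and MAX for 48 h against 6 h from -0.16 to 0.0031.

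Of 1602 tests of single network genes under the alternatives, leaving out 1 array lost 21 calls and gained 9, and the other settings lost 18, gained 16 and reversed 3, and 20 tests differed in sign with no call in either setting. The calls of MYC, MYCN, MXD1 and MXI1 against untreated held under every alternative run. Cyclic loess, which brought the median change of all genes at 6 h from 0.0925 to 0.0097 and called 3151 genes higher and 3223 lower there, changed the calls of 6 network genes against untreated. It also moved the count of genes called at 6 h from 7 to 11 among metabolic targets, from 4 to 1 among coactivators, from 5 to 3 among SIN3 complex genes and from 1 to 2 in the MLX branch, and at 24 h from 4 to 2 among coactivators and from 2 to 1 in the MLX branch. Those list counts pool rises and falls. Over all genes, cyclic loess moved the calls in either direction from 7291 to 6374 at 6 h and from 7134 to 6430 at 24 h. The replicate number as a block changed none of the 60 calls of network genes and gave 7325 calls at 6 h against 7291. Same-numbered arrays did not deviate together (residual correlations from -0.15 to 0.18, median 0.053), so the numbers were not taken as pairs. The number of arrays, and for MYCL and the dim probe sets the low signal, limit what could be detected.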
